A study of Mus musculus with 8 samples.

Results

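DNA methylation was described at 10 genes that stand for the cytokine programs of helper T cells, before those cells had been activated. The genes were Ifng, Il4, Il5, Il13, Rad50, Il17a, Il17f, Il2, Il21 and Il10, taken by name out of 21755 protein-coding genes on the autosomes and X. Each was examined over its gene body in GENCODE with 20 kb on either side, called its gene window here. The windows of Il4, Il13, Rad50 and Il5 overlapped on chromosome 11 and shared CpGs, so the 10 windows formed 7 separate loci. Together they held 4072 of the 18684786 CpGs listed in every library.

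The cells came from spleens of C57BL/6J mice aged 6 to 8 weeks. Naive T cells were sorted as CD4+, CD62Lhi, CD44lo and CD25-, and resting B cells were CD43-. Whole genome oxidative bisulfite sequencing (WGoxBS), in which bisulfite makes unmodified cytosine read as T and oxidation is used to set apart hydroxymethylated cytosine, gave the share of reads methylated at each CpG. The study's methods describe the reads as recording both methylated and hydroxymethylated cytosine, so a level is used here as the share of reads counted as methylated. Both cell types were taken from pooled mice of each sex, and each of the 4 resulting groups had 1 deposited file and 2 labelled samples. Whether a file holds 1 of these or both was not given in the sources used here, so each file is treated as 1 library, intervals cover counting error only, and the sexes were the only repeats of a cell type.

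A naive CD4+ T cell makes none of the effector cytokines at a high level, and activation under different signals drives it towards helper types that do. Th1 cells make interferon gamma (Ifng), Th2 cells make Il4, Il5 and Il13, and Th17 cells make Il17a and Il17f. Il2 is the growth factor made early after activation, Il21 is made by follicular helper and Th17 cells and acts on B cells, and Il10 restrains immune responses. Rad50 encodes a DNA repair protein of all cells, and it is included because the 3′ part of the gene holds the locus control region of the Th2 cytokines. Methylated CpGs at a promoter commonly go with a silent gene.

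The stretches that carried the clearest findings are printed with every CpG in capitals, from the RefSeq sequence of GRCm38.p6, which matches the mm10 coordinates of the files. The promoters of Ifng, Il2, Il4, Il13 and Il17f run from 250 bases before to 50 bases after the RefSeq start. RefSeq promoter sequences were matched for 8 of the 10 genes. The Ifng promoter is shown because its CpGs before the start were at 22.2% to 100% in B cells and 0% to 20% in T cells, and that of Il4 because both its CpGs were methylated in every library. Those of Il2, Il13 and Il17f are shown because single CpGs in them lay lower in both T cell libraries than in both B cell libraries.
Ifng promoter, chr10:118440796-118441095, plus strand: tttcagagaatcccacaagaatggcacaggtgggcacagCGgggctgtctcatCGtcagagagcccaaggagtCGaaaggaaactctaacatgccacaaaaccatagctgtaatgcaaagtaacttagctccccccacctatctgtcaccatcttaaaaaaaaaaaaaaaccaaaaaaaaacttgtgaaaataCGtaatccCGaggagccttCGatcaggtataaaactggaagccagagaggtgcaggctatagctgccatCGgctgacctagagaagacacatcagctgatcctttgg
Il2 promoter, chr3:37125905-37126204, minus strand: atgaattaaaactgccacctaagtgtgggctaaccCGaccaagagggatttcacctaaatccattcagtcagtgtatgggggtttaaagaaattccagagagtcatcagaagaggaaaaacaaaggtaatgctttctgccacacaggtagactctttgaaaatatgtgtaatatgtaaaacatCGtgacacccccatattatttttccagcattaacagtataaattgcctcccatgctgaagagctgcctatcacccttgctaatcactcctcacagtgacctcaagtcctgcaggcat
Il4 promoter, chr11:53618616-53618915, minus strand: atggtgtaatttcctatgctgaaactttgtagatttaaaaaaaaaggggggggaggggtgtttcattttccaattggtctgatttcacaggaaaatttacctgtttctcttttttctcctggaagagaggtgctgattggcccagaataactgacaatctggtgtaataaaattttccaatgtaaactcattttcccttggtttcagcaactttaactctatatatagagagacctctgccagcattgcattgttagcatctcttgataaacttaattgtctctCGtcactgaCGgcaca
Il13 promoter, chr11:53634653-53634952, minus strand: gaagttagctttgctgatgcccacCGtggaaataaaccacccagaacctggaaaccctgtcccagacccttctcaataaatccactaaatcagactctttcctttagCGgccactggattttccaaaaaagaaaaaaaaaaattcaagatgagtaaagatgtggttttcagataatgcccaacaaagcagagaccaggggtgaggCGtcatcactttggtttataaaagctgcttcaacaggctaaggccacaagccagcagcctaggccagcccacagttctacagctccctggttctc
Il17f promoter, chr1:20784221-20784520, minus strand: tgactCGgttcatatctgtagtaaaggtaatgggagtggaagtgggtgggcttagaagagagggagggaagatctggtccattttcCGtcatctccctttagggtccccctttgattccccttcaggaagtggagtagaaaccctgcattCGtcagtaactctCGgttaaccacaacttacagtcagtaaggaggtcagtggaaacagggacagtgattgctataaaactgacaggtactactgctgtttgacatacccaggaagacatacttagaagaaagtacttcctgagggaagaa

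Away from the promoters, the next stretches of 300 bases were chosen on the values. Each is the stretch with at least 4 CpGs and the largest difference between B and T cells, inside the called 1-kb tile with the largest difference of its locus. The Rad50 stretch is intronic and lies in the 3′ part of the gene, the Il21 stretch is intergenic and downstream of the gene, the stretch downstream of Il2 is in an intron of the neighbouring gene Adad1, and the Il10 stretch is intergenic and upstream.
Rad50 intron, chr11:53655091-53655390, plus strand: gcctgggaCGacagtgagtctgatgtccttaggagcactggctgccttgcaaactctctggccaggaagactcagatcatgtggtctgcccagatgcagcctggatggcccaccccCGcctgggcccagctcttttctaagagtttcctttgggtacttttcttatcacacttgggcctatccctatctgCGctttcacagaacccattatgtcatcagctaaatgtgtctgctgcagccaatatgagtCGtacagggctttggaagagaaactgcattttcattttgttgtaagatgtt
Il21 downstream, chr3:37209511-37209810, plus strand: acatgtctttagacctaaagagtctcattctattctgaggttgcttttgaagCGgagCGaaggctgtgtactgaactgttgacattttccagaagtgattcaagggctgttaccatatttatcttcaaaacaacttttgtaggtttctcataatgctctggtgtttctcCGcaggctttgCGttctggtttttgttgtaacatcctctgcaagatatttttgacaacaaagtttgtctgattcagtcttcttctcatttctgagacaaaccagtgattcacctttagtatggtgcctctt
Il2 downstream, chr3:37108261-37108560, plus strand: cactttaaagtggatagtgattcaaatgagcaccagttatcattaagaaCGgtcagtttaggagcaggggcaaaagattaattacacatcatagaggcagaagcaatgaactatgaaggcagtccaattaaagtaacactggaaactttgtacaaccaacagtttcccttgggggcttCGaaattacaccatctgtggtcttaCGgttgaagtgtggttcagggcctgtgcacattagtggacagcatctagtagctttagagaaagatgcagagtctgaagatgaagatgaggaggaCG
Il10 upstream, chr1:131018551-131018850, plus strand: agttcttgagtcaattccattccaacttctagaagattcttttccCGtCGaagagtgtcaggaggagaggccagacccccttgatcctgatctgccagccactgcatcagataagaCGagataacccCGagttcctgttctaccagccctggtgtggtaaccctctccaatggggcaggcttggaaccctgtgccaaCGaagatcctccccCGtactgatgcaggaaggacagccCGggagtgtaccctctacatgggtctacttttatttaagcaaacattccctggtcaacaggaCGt

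Promoter levels of cell type markers followed the labels. A promoter was taken as the DNA within 1 kb of the gene start in both directions and called at an adjusted p under 0.05 with a difference of at least 20 percentage points. In T cells, 9 of 10 T cell marker promoters were called as lower than in B cells, Cd28 being the exception, with gene means of 0% to 88.8% in T cells and 67.5% to 94.5% in B cells. In B cells, 7 of 8 B cell marker promoters were called as lower, with 3.68% to 27.5% in B cells and 17.1% to 94.8% in T cells. Of 9 tested markers of other cells, Cd8a and Cd8b1 were called as lower in T cells, at 56.1% and 57.2% and at 29.2% and 29.7%, and the rest were not called. With the adjusted p alone 6 of the 9 passed, beside 19.9% of all promoters. Foxp3, Itgam and Gata1 were lower in T cells by 19.3, 13.0 and 11.7 points, and Lyz2 was lower in B cells by 16.8 points. Foxp3 and Gata1 lie on the X chromosome, and their differences were 11.8 and 5.71 points in females and 26.7 and 17.8 points in males. Whether CD8+ cells in the sort took part in any difference below was not tested. Reads at CpGs came to between 280919817 and 354634149 a library, with a median of 14 to 17 reads per CpG.

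Most of the helper cytokine DNA was methylated in naive T cells. The level of a gene window in T cells, as the mean of the female and male libraries, ran from 66.5% at Il5 to 89.4% at Il17f, and 7 of the 10 windows were at 80% or above, beside 35.0% of all windows. The median over the 10 genes was 82.6% in T cells and 84.2% in B cells, beside 74.4% and 77.0% over all 21656 gene windows tested. The order in T cells from the top was Il17f, Il2, Ifng, Il17a, Il13, Il10, Il4, Rad50, Il21 and Il5. Il2 at 86.9% and Ifng at 86.8% could not be set apart in that order, since their counting intervals overlapped in both T cell libraries. The intervals of Il13 at 82.9% and Il10 at 82.4% also overlapped or met, as did those of Il17a at 84.2% and Il13 in both T cell libraries. The order held for these flanks only. Il5 was at 90.4% with flanks of 10 kb, then the highest of the 10, and at 90.7% over its gene body, and Il10 was at 77.2% and 59.2%.

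Of the 10 gene windows, 2 were called between B and T cells, Ifng and Il21, and both were more methylated in B cells. A window was called at an adjusted p under 0.05 and a difference of at least 5 percentage points, and 13.9% of all windows were called by the same rule, 97.8% of these with B cells higher. The Il21 window held 85.8% methylated reads in female B cells, 84.5% in male B cells, 72.5% in female T cells and 73.4% in male T cells. The cell types did not overlap, and B cells were 12.2 points higher (adjusted p = 1.75e-08). The Ifng window held 92.0%, 92.6%, 87.0% and 86.6% in the same order, with B cells 5.51 points higher (adjusted p = 1.82e-06). Rad50 and Il17a passed the p threshold alone, with B cells 2.31 and 2.50 points higher (adjusted p = 0.0229 and 0.0204), so that 4 of the 10 windows passed it, beside 41.9% of all windows. For the other 6 genes the difference lay between 0.255 points at Il4 and 1.64 points at Il5, with adjusted p of 0.261 or more. Which windows passed depended on the flanks. Over the gene body alone, and with flanks of 10 kb, Il21 and Il2 were called and Ifng was not. The Ifng difference was 0.693 points over the gene body (adjusted p = 0.776), and with flanks of 10 kb it was 5.00 points after rounding and just under the minimum (adjusted p = 2.07e-08).

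**Figure D1:**
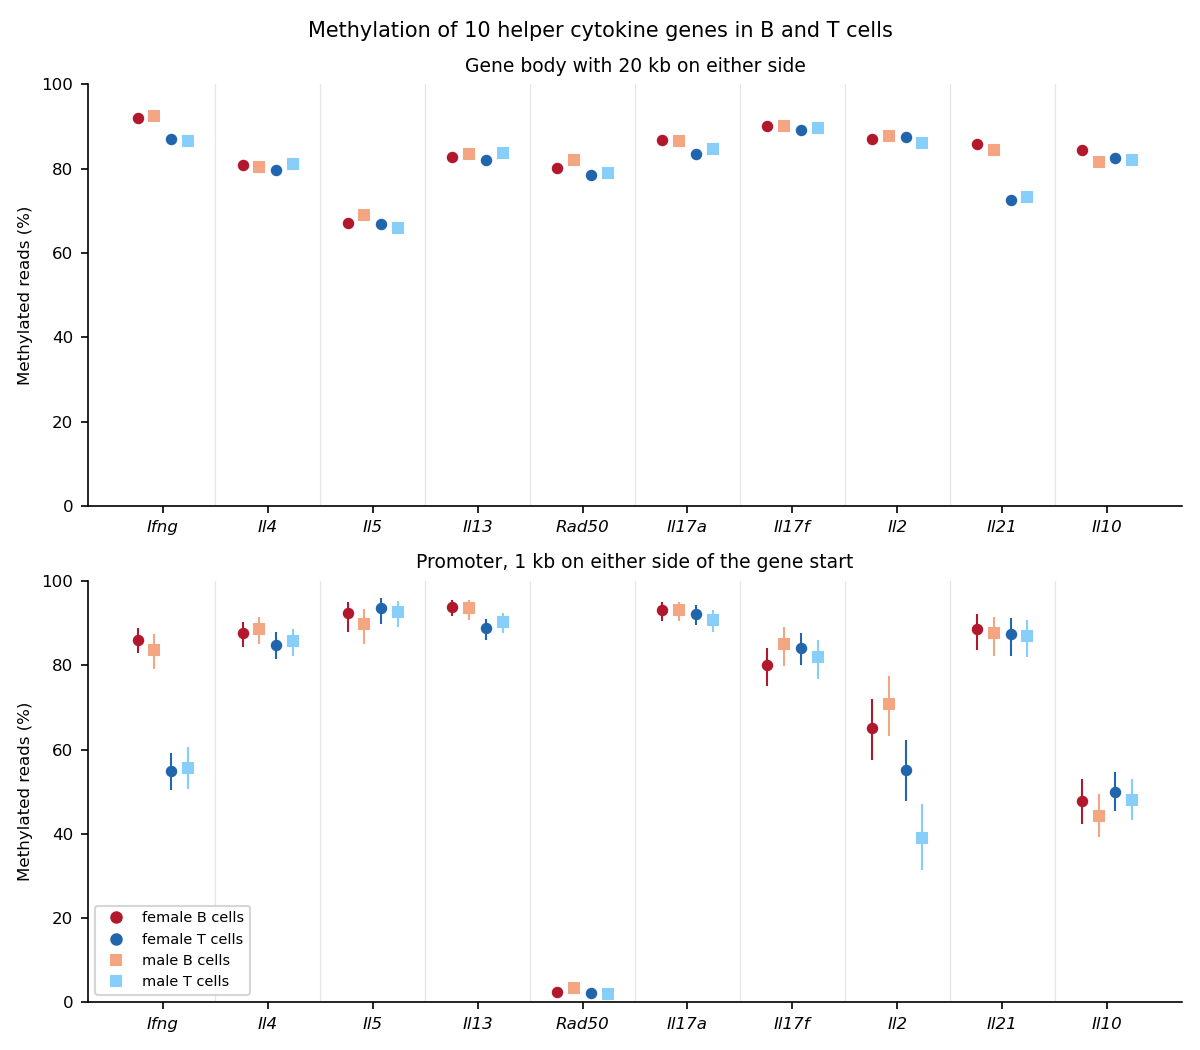
Methylated reads in percent in each library (circles female, squares male, red B cells, blue T cells) for the 10 gene windows (top) and promoters (bottom), with 95% Wilson intervals that cover counting error only. Gene windows sit between 66.0% and 92.6%. Both B libraries lie above both T libraries at Ifng and Il21, which were called, and by smaller margins at Il5, Rad50, Il17a and Il17f. At the promoters, B cells lie apart from T cells at Ifng, at Il2 the female intervals overlap while the male ones do not, and Rad50 lies below 4% in every library.

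At the level of promoters, 6 of the 10 genes were at 80% or above in T cells, while 22.7% of all 20501 promoters were. The 6 include Il17f, at 83.0% around its GENCODE start. Around the start of its principal transcript it was at 78.0% and under that cut. The median promoter of the 10 genes was 84.2% methylated in T cells, beside 12.3% over all promoters. The members' promoters were also poor in CpGs, with a median of 11.7 listed CpGs per kb beside 31.0 over all promoters. Rad50 was the exception. Its start lies in a CpG-rich stretch with 84 listed CpGs, and its promoter was methylated at 2.51%, 3.36%, 2.20% and 1.95% in female B, male B, female T and male T cells.

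The Ifng and Il2 promoters were called between B and T cells, 2 of 10 beside 1.37% of all promoters. Both were higher in B cells, as were 70.0% of all called promoters. The Il13 promoter passed the p alone, at 93.8% and 93.5% in B cells and 88.8% and 90.2% in T cells (4.07 points, adjusted p = 0.0298), which made 3 of 10 passing it, beside 19.9% of all promoters. The Il2 call was lost with limma (adjusted p = 0.131) and in a fit of all 4 libraries with no term for sex (adjusted p = 0.144), in which Ifng was still called (adjusted p = 0.0120). With 1 library left out, where the sex term also had to be dropped, the Il2 promoter was called in none of the 4 fits and Ifng only without female B cells, although the Ifng difference stayed between 28.5 and 30.9 points. The Il2 difference was 12.9 points without male T cells and 29.0 points without female T cells.

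The Th1 gene Ifng was methylated through its body and most of its flanks, and unmethylated in T cells just before its start. The promoter window on chromosome 10 held 86.1% methylated reads in female B cells (95% Wilson interval 82.8% to 88.9%) and 83.7% in male B cells (79.0% to 87.5%). In T cells it held 54.9% in females (50.4% to 59.3%) and 55.6% in males (50.6% to 60.6%). The cell types lay far apart and the sexes close together, with B cells 29.7 points higher (adjusted p = 7.68e-18).

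The difference was concentrated in 9 neighbouring CpGs from -590 to -37 bases relative to the start. Over these, T cells held 5.82% methylated reads in females and 0.769% in males, against 75.5% and 71.2% in B cells. All 9 were at or under 20% in T cells and none was in B cells. Of the 7 CpGs in the printed promoter, the one 49 bases before the start had 0 of 29 methylated reads in female T cells, which allows a share of up to 10.3%, and 0 of 17 in male T cells, which allows up to 17.6%. In B cells it was at 89.3% and 85.7%. Here and below, the share allowed by 0 methylated reads is 3 divided by the reads and is not a Wilson limit. The CpG 12 bases after the start was already at 68.6% and 68.0% in T cells, and from 259 to 742 bases after it T cells were at 75.0% or more at every listed CpG. The B cell levels dipped in the middle of the promoter, to 42.3% and 50.0% at 197 bases and to 60.0% and 22.2% at 177 bases before the start, the last on 9 reads in males.

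In tiles of 1 kb, called by the same rule as promoters, 4 of the 33 tiles at Ifng were called and all 4 were higher in B cells. The tile just upstream of the start was the lowest of the locus in T cells, at 15.8% in females and 11.2% in males, with 76.0% and 67.9% in B cells (58.5 points, adjusted p = 1.67e-31). Downstream of the gene, the tile centred 19.5 kb after the start held 93.1% and 95.8% in B cells and 59.9% and 39.8% in T cells (44.6 points, adjusted p = 3.01e-24). Here the T libraries differed from each other, and both lay below both B libraries. A tile 17.5 kb after the start showed 30.7 points, and one 8.45 kb after it 21.2 points, which fell to 18.3 points and below the threshold without female T cells. Over the whole interval from 16 to 22 kb after the start, B cells held 90.0% and 90.3% and T cells 70.2% and 66.2%. By contrast, 4 to 8 kb upstream of Ifng, where a conserved enhancer is known, all libraries were between 91.8% and 94.7%, and none of the 4 tiles was called.

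The Th2 genes lie on chromosome 11 in the order Il4, Il13, Rad50 and Il5 over a joined stretch of 162 kb. Of its 150 tiles, 130 were at 80% or above in T cells and 132 in B cells, and 2 were called. That is 1.33%, under the share of 3.17% called among all 1530528 tiles. The promoters of the cytokines themselves were methylated in T cells, at 84.9% and 85.7% at Il4, 93.6% and 92.7% at Il5, and 88.8% and 90.2% at Il13 in females and males. The Il4 and Il5 promoters differed from B cells by 2.80 and -2.06 points (B minus T) and did not pass the test (adjusted p = 0.379 and 0.495).

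Single CpGs near the Il4 and Il13 starts departed from these averages. Both CpGs of the printed Il4 promoter, 34 and 43 bases after the start, were at 88.9% or above in every library. Farther upstream, the CpG 330 bases before the Il4 start was at 27.8% in female T cells and 47.4% in male T cells, and at 84.2% and 80% in B cells, each on 15 to 19 reads. The listed CpGs at 345, 276 and 251 bases before the start were also partly methylated in T cells, at means of 61.4%, 60.6% and 30.1%. B cells were at means of 92.5%, 56.2% and 45.2% there, on as few as 6 reads a library. Of the 3 CpGs in the printed Il13 sequence, only the one 45 bases before the start was listed in all libraries. It was at 57.1% and 43.5% in T cells and 100% and 94.1% in B cells. These CpGs were picked out after their values were seen, and no test was run on single CpGs.

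**Figure D2:**
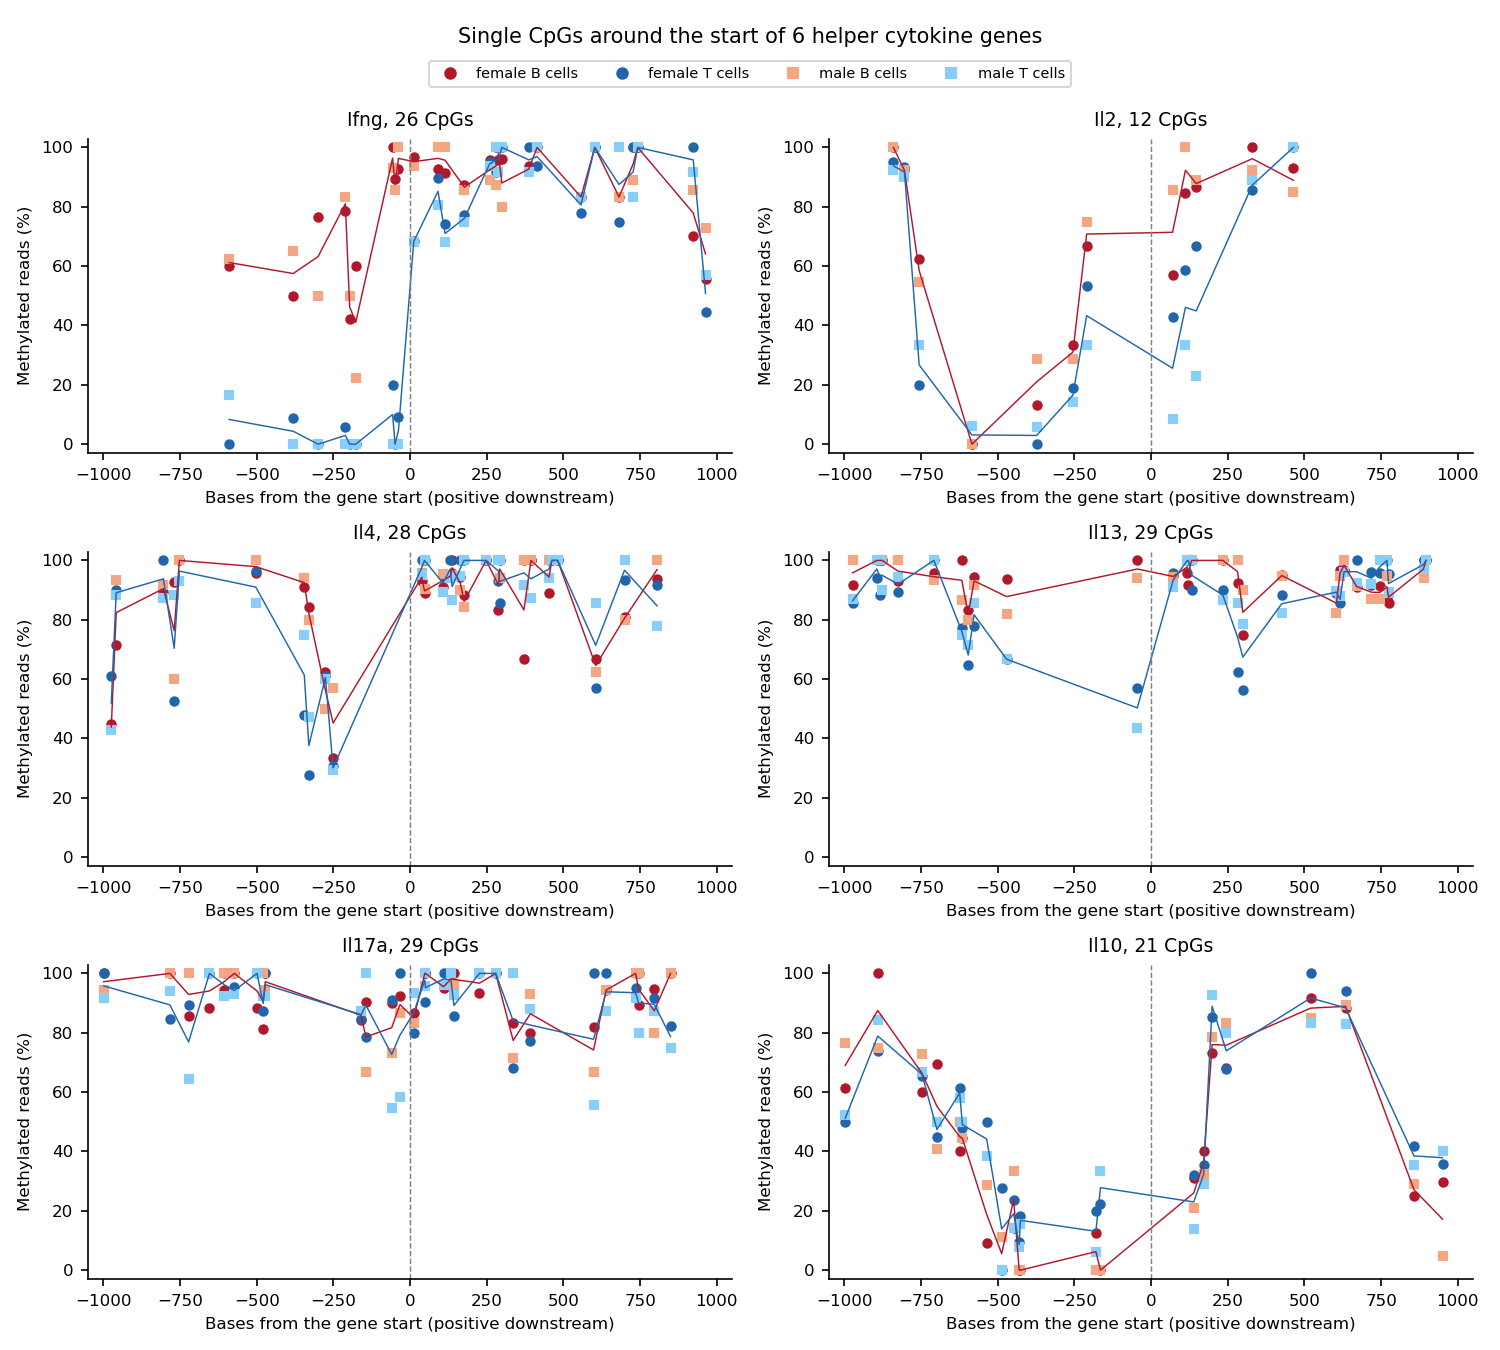
Methylated reads in percent at every CpG listed in all libraries within 1 kb of the start of Ifng, Il2, Il4, Il13, Il17a and Il10 (points are libraries, lines join the B and T means). T cells fall to 0% to 20% at the 9 CpGs before the Ifng start, the Il17a CpGs stay at 54.5% or above in every library, and Il10 is low before its start in both cell types.

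The clearest Th2 difference was in the 3′ part of Rad50. The tile chr11:53655001-53656000, which overlaps an exon of Rad50, held 98.2% and 98.4% methylated reads in female and male B cells and 35.3% and 55.3% in T cells. B cells were 53.0 points higher (adjusted p = 3.50e-38) and higher in both sexes, by 62.8 points in females and 43.1 in males. At the 4 CpGs of the printed intron, T cells ranged from 5.88% to 50.0% and B cells from 92.9% to 100%. About 2 kb nearer to the gene start, 6 CpGs were at 11.4% and 10.1% in T cells and 79.1% and 83.8% in B cells. The rest of the last 25 kb of Rad50 was methylated, so that this whole interval held 92.6% and 93.3% in B cells and 88.5% and 88.9% in T cells, with 1 of its 21 tiles called.

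One further tile was called at the Th2 locus and was lower in B cells. It overlaps an exon of Kif3a, a kinesin gene downstream of Il4, and held 53.0% and 49.6% in B cells and 90.2% and 92.0% in T cells (-39.8 points, adjusted p = 1.54e-27). Within Il4, an intronic stretch of 14 CpGs about 12.6 kb after the start was nearly unmethylated in T cells, at 5.51% and 1.92%, and partly methylated in B cells, at 30.7% and 23.9%. This stretch lies in the part that only a longer GENCODE transcript of Il4 covers. A pair of shorter runs of 4 CpGs lay lower in B cells, about 9.1 kb after the start at 12.2% and 2.56% against 23.6% and 24.5% in T cells, and about 4 kb before it at 12.2% and 18.4% against 37.4% and 30.8%. Intron 2 of Il4, which holds a known enhancer, was at 88.5% to 90.9% in all libraries, and none of its 4 tiles was called. The 6 kb beyond the GENCODE end of Il4 held 93.8% to 94.9%, and the 6 kb beyond the end of the shorter principal transcript 74.4% to 81.2%, with no tile called in either.

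Some stretches of the Th2 locus were unmethylated in both cell types. Upstream of Il13, 42 neighbouring CpGs from -1953 to -1468 bases relative to the start held 4.03% and 5.60% in B cells and 0.828% and 1.90% in T cells. A response element for GATA3, the regulator of Th2 cells, is known upstream of Il13. The start of Rad50 was unmethylated over 82 CpGs, at 1.82% or less in every library, and the tile there was the lowest of the locus in T cells, at 0.851% and 0.915%. A further 17 CpGs in Kif3a were at 2.84% or less. Beyond Il5, 11 CpGs about 15 kb after its start were at 2.27% to 12.3% and 8 CpGs about 16 kb after it at 7.56% to 9.14%. Between Il4 and Il13, the intergenic DNA held 84.9%, 83.3%, 85.8% and 86.4% in female B, male B, female T and male T cells, with none of 12 tiles called.

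**Figure D3:**
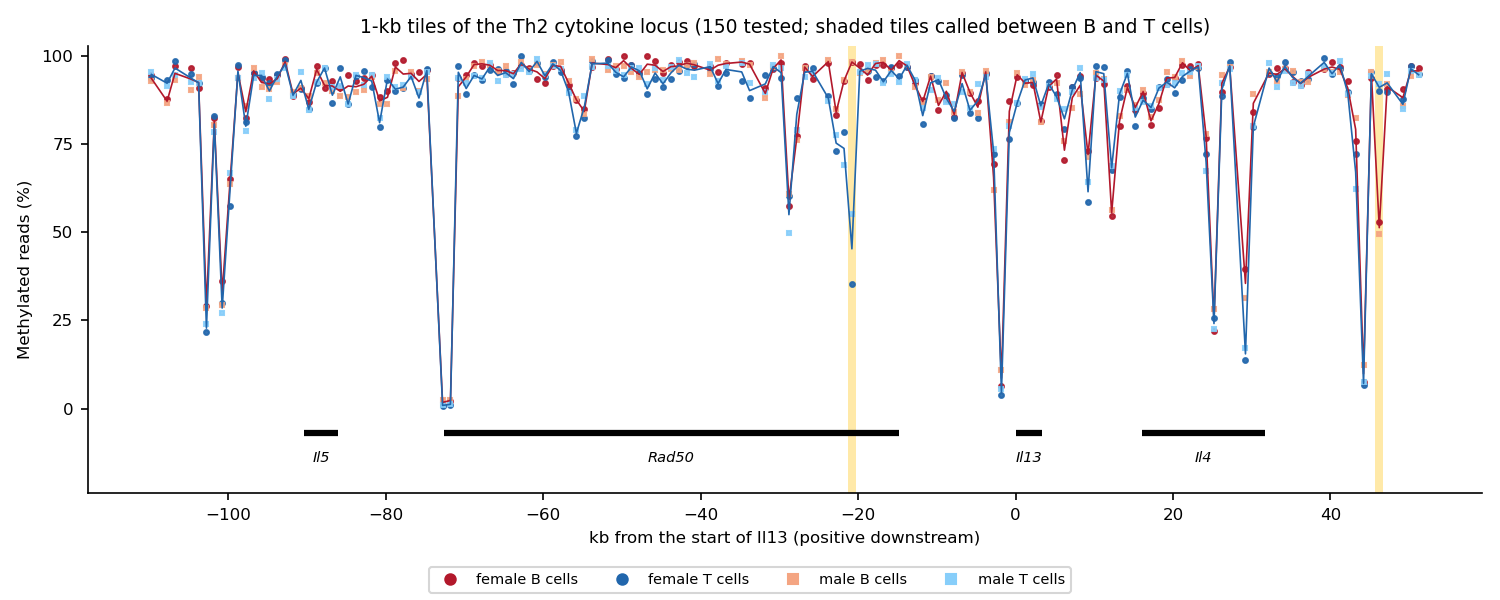
Methylated reads in percent in 150 tested 1-kb tiles of the joined Il4, Il13, Rad50 and Il5 locus against distance from the Il13 start (points are libraries, lines join the B and T means, bars are genes). The 2 shaded tiles, in the 3′ part of Rad50 and downstream of Il4, were called, and the deep troughs at the Rad50 start and upstream of Il13 are shared by B and T cells.

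The promoter windows of the Th17 genes and most of the DNA around them were methylated in both cell types. The Il17a promoter held 93.0% in both B libraries and 92.2% and 90.8% in T cells (1.48 points, adjusted p = 0.533). None of its 29 CpGs was at or under 20% in T cells, and the lowest was at 72.7% as the mean of the T libraries. At the GENCODE start of Il17f the levels were 80% and 85.1% in B cells and 84.2% and 81.9% in T cells (-0.505 points, adjusted p = 0.897). The start of the principal Il17f transcript lies 6347 bases inside that gene model, and around it B cells held 84.2% and 81.6% and T cells 82.1% and 73.9%. The 4 CpGs of the printed Il17f promoter, just before that start, varied. At 164 bases before it, T cells held 23.5% and 8.33% and B cells 72.7% and 66.7%, and at 100 bases before it T cells held 0% of 12 reads, which allows up to 25%, and 11.1%, with 30.8% and 16.7% in B cells. At 87 bases before it, T cells held 66.7% in females and 10.0% in males and B cells 37.5% and 35.3%, with the sexes in opposite directions. These CpGs were picked out after their values were seen and were not tested.

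At Il17a, 1 of 28 tiles was called, 9.60 kb after the start and beyond the gene. It held 83.3% and 82.4% in B cells and 47.9% and 44.3% in T cells (36.8 points, adjusted p = 3.81e-08), and it was also the lowest tile of the locus in T cells. At Il17f, none of 50 tiles was called, and 2 passed the adjusted p alone, beside 9.35% of all tiles. The lowest tile in T cells, 24.1 kb after the GENCODE start, held 53.7% in females and 69.0% in males, with 70.8% and 70.5% in B cells (adjusted p = 0.168). From 3 to 7 kb upstream of Il17a all libraries were between 88.6% and 92.5%. Neither locus held a run of at least 4 neighbouring CpGs under 30% in T cells or in B cells, in contrast to the other 5 loci.

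At Il2, T cells were less methylated than B cells around the start and more methylated downstream. In B cells the promoter held 65.2% in females (57.6% to 72.1%) and 70.9% in males (63.2% to 77.5%). In T cells it held 55.1% in females (47.7% to 62.3%) and 39.0% in males (31.5% to 47.1%). B cells were 21.0 points higher (adjusted p = 0.000441), by 10.1 points in females and 31.8 points in males, and the female intervals overlapped. The test behind this p gave no weight to how far females and males disagreed at this promoter. The window has only 12 listed CpGs and 146 to 176 reads a library. The printed sequence has 2 CpGs, and the 1 listed in all libraries, 215 bases before the RefSeq start, was at 66.7% and 75.0% in B cells and 53.3% and 33.3% in T cells. The listed CpGs nearest to the start lay after it, at 70, 112 and 147 bases. At 70 bases B cells held 57.1% in females and 85.7% in males and T cells 42.9% and 8.33%, and at 147 bases B cells held 86.7% and 88.9% and T cells 66.7% and 23.1%. The male T library was the lowest at all 3, and the differences were larger in males than in females, on 9 to 18 reads a CpG. Over 4 CpGs within 600 bases upstream, B cells held 34.9% and 36.7% and T cells 18.0% and 13.6%. The lowest tile of the locus in T cells, just upstream, held 45.1% and 35.2%, with 53.6% and 54.9% in B cells (adjusted p = 0.196). The tile over the Il2 start was called at 29.5 points (adjusted p = 0.000144), and without male T cells the difference was 17.4 points and under the threshold. It was not called by limma either (adjusted p = 0.138).

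Downstream, in an intron of Adad1, the direction was opposite. The tile 17.5 kb after the Il2 start held 39.2% and 34.5% in B cells and 96.7% and 96.1% in T cells (-59.5 points, adjusted p = 5.28e-42). At the 4 CpGs of the printed Il2 downstream sequence, B cells ranged from 0% to 10.0% and T cells from 88.2% to 100%. The CpG with 0% in B cells had 27 reads in females and 19 in males, which allows up to 11.1% and 15.8%. The downstream flank as a whole was thus at 80.9% and 81.5% in B cells and 91.3% and 90.1% in T cells, while the gene body was at 95.1% and 95.5% in B cells and 86.5% and 85.0% in T cells. These opposite differences met in the gene window, which differed by 0.441 points.

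Il21 was the locus with the most called tiles. Of its 38 tiles, 12 were called, 31.6%, and all were higher in B cells. Its promoter was not among them. The promoter held 88.6% and 87.6% in B cells and 87.4% and 86.9% in T cells (0.936 points, adjusted p = 0.853). The gene body held 91.7% and 89.9% in B cells and 72.8% and 70.4% in T cells, and the downstream flank 80% and 77.8% against 60.7% and 61.1%. Upstream, the flank was at 88.6% to 91.5% in all libraries.

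The largest difference of all 360 tiles was downstream of Il21. The tile chr3:37209001-37210000 held 96.8% in both B libraries and 28.0% and 28.5% in T cells (68.5 points, adjusted p = 1.46e-69), and the sexes differed by under 1 point within each cell type. At the 2 CpGs nearest each other in the printed Il21 sequence, all reads were methylated in B cells and none of 15 to 21 reads was in T cells, which allows up to 14.3% in the deepest and 20% in the shallowest T library value. The called tiles formed a block on either side of it, from 21.1 to 27.1 kb after the start. Just beyond it, the tile at 29.1 kb held 82.3% and 85.0% in B cells and 33.0% and 32.7% in T cells (50.8 points, adjusted p = 1.14e-28). At the far end of the block, 35 CpGs over 1962 bases were at 1.43% and 1.09% in T cells and 10.7% and 11.7% in B cells, and the tile there was the lowest of the locus in T cells, at 1.27% and 1.15%.

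The second largest difference at Il21 was upstream. The tile centred 11.9 kb before the start held 97.0% and 76.0% in B cells and 21.4% and 28.3% in T cells (61.6 points, adjusted p = 2.30e-17), on 50 to 84 reads a library. Inside the gene, 3 intronic tiles were called, at 28.1 to 36.8 points. The lowest of these, 6.14 kb after the start, was at 4.00% and 8.51% in T cells and 47.3% and 35.9% in B cells. The tile 25.1 kb after the start lost its call without female B cells or female T cells, at 18.1 and 15.9 points, and with limma (adjusted p = 0.0801). With at least 10 reads per CpG in every library it was at 15.3 points and the tile at 27.1 kb at 14.6 points, and neither was called. The one at 21.1 kb lost its call without male T cells, at 18.5 points. A short run of 4 CpGs just over 1 kb before the start went the other way, at 4.35% and 3.37% in B cells and 20.9% and 26.4% in T cells.

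**Figure D4:**
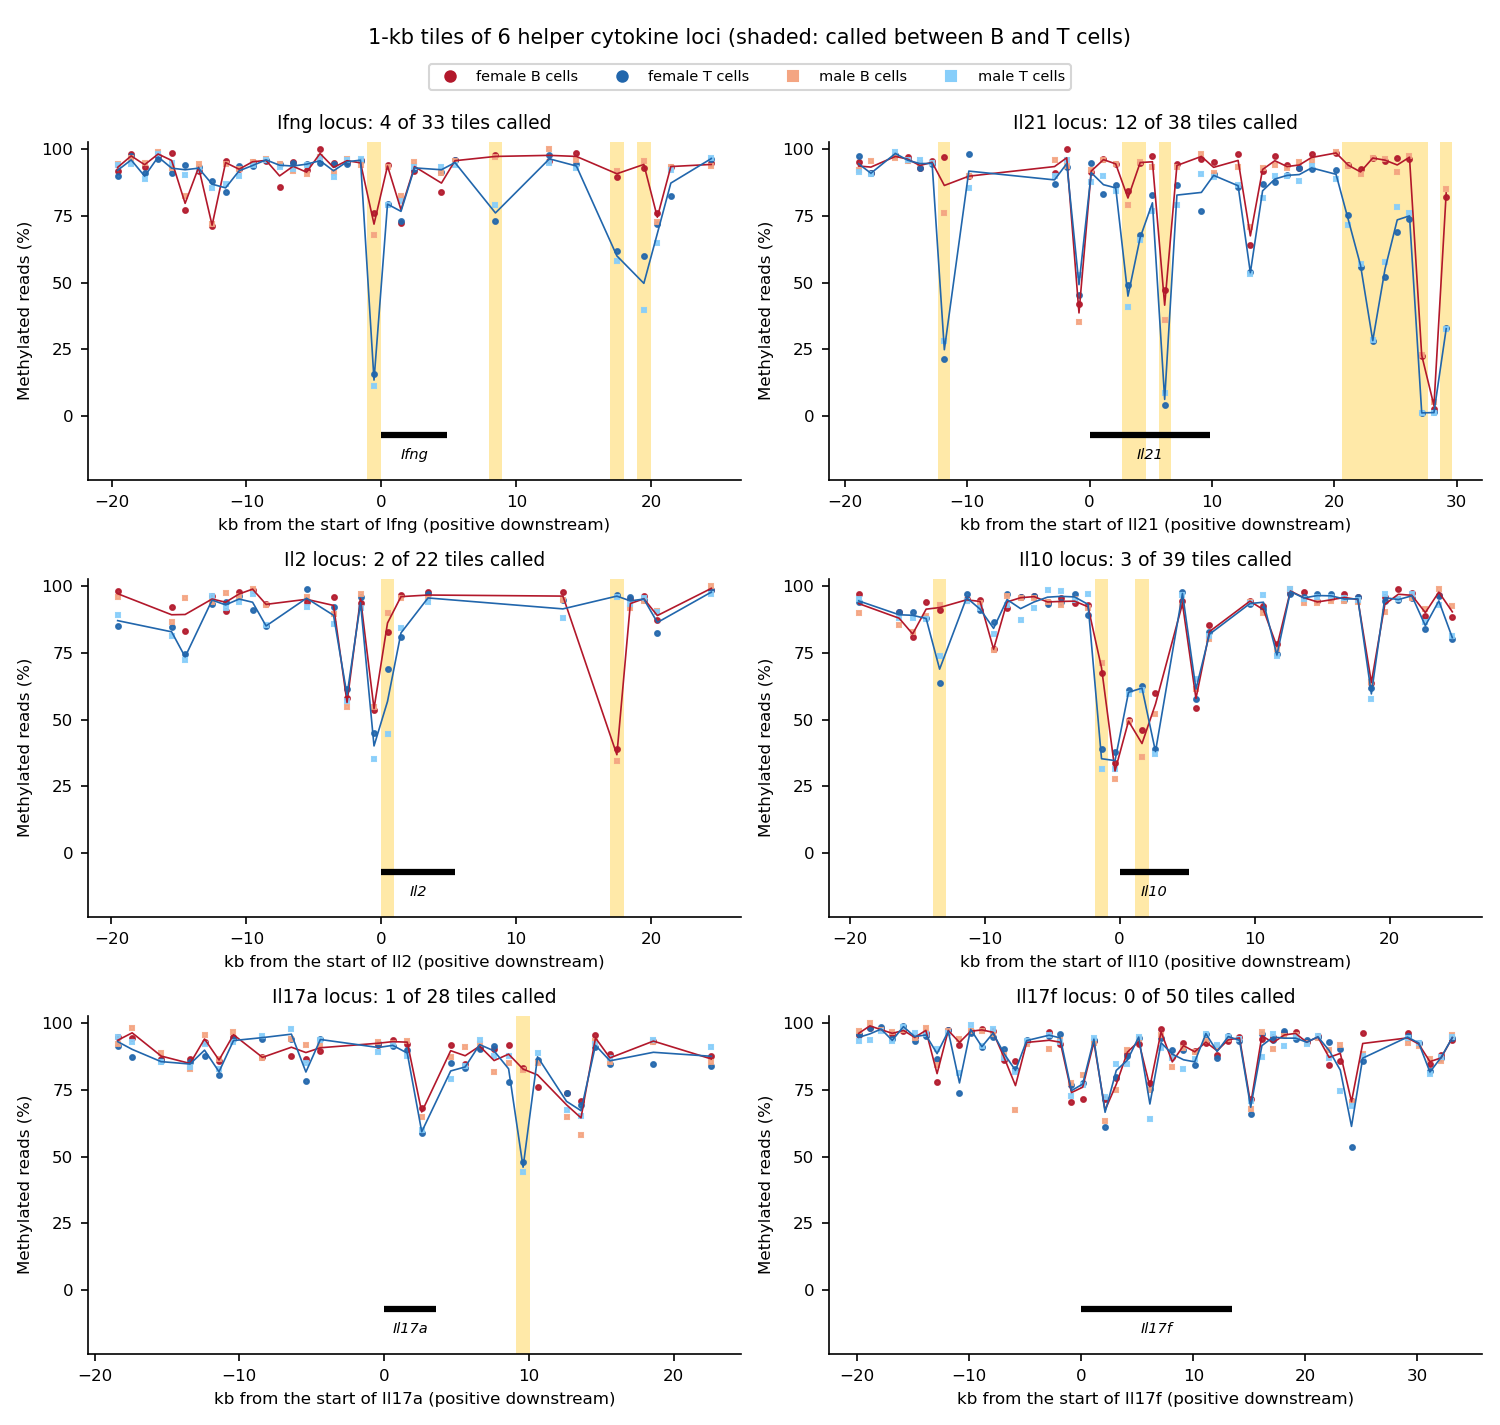
Methylated reads in percent in the tested 1-kb tiles of 6 loci against distance from the gene start (points are libraries, lines join the B and T means, bars are genes, shaded tiles were called). T cells fall below B cells before the Ifng start and in a block downstream of Il21, B cells fall to 39.2% and 34.5% downstream of Il2, and no tile is shaded at Il17f.

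Il10 was only partly methylated around its start in both cell types. The promoter held 47.7% (42.4% to 53.1%) and 44.3% (39.2% to 49.5%) in B cells and 50.0% (45.4% to 54.6%) and 48.1% (43.2% to 53.0%) in T cells, with overlapping intervals and a difference of -3.03 points (adjusted p = 0.669). Of its 21 CpGs, 5 were at or under 20% in T cells and 7 in B cells. From 487 bases before to 140 bases after the start, 7 CpGs held 11.3% and 9.78% in B cells and 22.5% and 13.4% in T cells. The tile there was the lowest of the locus in T cells, at 37.9% and 31.4%, with 33.8% and 27.8% in B cells (adjusted p = 0.759). From 8 to 10 kb upstream all libraries were at 82.1% to 88.8%. Il10 had the only promoter other than that of Rad50 with a run of low CpGs across the start in both cell types.

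Tiles on either side of that shared low stretch were called in opposite directions. The tile centred 1.34 kb upstream held 67.6% and 71.4% in B cells and 39.2% and 31.5% in T cells (34.1 points, adjusted p = 4.68e-13). Within it, in the printed Il10 sequence, 7 neighbouring CpGs from -1249 to -1058 bases relative to the start were at 15.9% and 11.2% in T cells and 62.8% and 69.0% in B cells. The tile 1.66 kb after the start, in the gene body, was lower in B cells, at 46.3% and 36.0% against 62.8% and 61.1% (-20.8 points, adjusted p = 7.78e-06). Without female T cells or male B cells that difference was -20.0 or -15.7 points and under the threshold. With limma neither of these opposite tiles was called (adjusted p = 0.0673 upstream and 0.220 in the gene body). Not all of the gene body went that way, since a run of 6 CpGs from 2727 to 3144 bases after the start was at 3.41% and 14.5% in T cells and 30.9% and 35.2% in B cells. A tile 13.3 kb upstream was called at 23.1 points, and at 18.0 points without female T cells it was not.

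Over the 7 loci, 24 of 360 tiles were called between B and T cells, 6.67% beside the 3.17% of all tiles. B cells were higher in 21 of the 24 and T cells in 3, while 74.4% of all called tiles were higher in B cells. Il21 held 12 of the 24, Ifng 4, Il10 3, Il2 and the Th2 locus 2 each, Il17a 1 and Il17f 0. The pooled share thus owed most to Il21, where 31.6% of tiles were called. The shares were 12.1% at Ifng, 9.09% at Il2, 7.69% at Il10, 3.57% at Il17a, 1.33% at the Th2 locus and 0% at Il17f. The difference was at least 20 points in both sexes in 18. Neighbouring tiles are not independent, so these counts describe the loci and are no test of them.

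Runs of at least 4 neighbouring CpGs, each under 30%, were used to describe where low methylation lay. T cells had 18 such runs with 9481 bases in all, and B cells had 15 with 6313 bases. At Ifng the run in T cells had no counterpart in B cells, and at Il2 each cell type had 1 run in a different place. The runs were found on the levels themselves and are therefore a description.

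Between females and males, no tile of these loci was called by edgeR, beside 0.0868% of all tiles, with 8 of the 360 at an unadjusted p under 0.05. With limma the count was also 0, with 15 at an unadjusted p under 0.05. No gene window reached an unadjusted p under 0.05 between the sexes. No tile was called for a B minus T difference that itself differed between the sexes, with 17 at an unadjusted p under 0.05. A p that misses the threshold does not show that the sexes had equal levels.

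The other genes of the pathway were examined by promoter, in lists drawn up with earlier results of these data known. Among 20 other cytokines, 1 promoter was called, or 5.00% beside 1.37% of all promoters. This was Ebi3, a subunit of interleukins 27 and 35, which was lower in B cells at 32.9% and 37.7% against 59.3% and 55.4% in T cells. The list's median difference was 0.807 points, beside 0.970 over all promoters. Among 16 receptors, 2 were called, 12.5% beside the same 1.37%, both higher in B cells. Il2rb, the beta chain of the Il2 receptor, was at 79.5% and 75.1% in B cells and 37.4% and 43.2% in T cells (37.0 points), and Il12rb1, a chain of the receptors of interleukins 12 and 23, differed by 22.2 points.

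Promoters of the transcription factors that direct helper fates were low in both cell types, with a median of 2.66% in T cells and 4.67% in B cells over 24 genes. The next 2 genes are given for their roles, outside the naming rule. Tbx21, the Th1 regulator, was at 1.87% and 2.38% in T cells, and Gata3, the Th2 regulator, at 1.61% and 2.06%. Only Runx3, which acts with Tbx21 at Ifng, was called, at 60.3% and 59.6% in B cells and 34.2% and 31.1% in T cells (27.3 points, adjusted p = 3.41e-11). It was 1 of 24, or 4.17% beside 1.37%. A further 12 of the 24 passed the adjusted p alone, all with B cells higher, while 17.7% of all promoters passed it with B cells higher.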

How the data were processed

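The authors trimmed and aligned WGoxBS reads of 4 groups, and the labels name Trim Galore, FastQC, Bismark 0.13.1 and the mouse build mm10. The deposited files give, per CpG with at least 5 reads, the read count and the methylation level as a fraction of 0 to 1. Each group had 1 file and 2 labelled samples, and whether a file holds 1 or both was not given in the sources used here. Methylated read counts were recovered from the deposited fraction and coverage, and the count over coverage, rounded up to 3 decimals, gave back the deposited level within 5e-07 for 100% of levels. Only CpGs that all 4 libraries list were kept, and their reads were added up in gene windows, promoters and 1-kb tiles with at least 5 CpGs and 20 reads a library. The study's groups were compared with edgeR 4.0.16 (R 4.3.3, quasi-likelihood test, two-sided) on methylated and unmethylated counts, with terms for library, cell type and sex, 1 residual degree of freedom and Benjamini-Hochberg adjustment over all features. With no replicate libraries, the residual after the fit held only the disagreement of females and males over the gap between B and T cells. For promoters and 1-kb tiles, the weight of the spread shared across features (prior degrees of freedom) was infinite. Their p-values therefore rested on that shared spread, and the residual of a single promoter or tile had no weight. For gene windows the prior degrees of freedom were 16.27, so both counted and the shared spread counted more. The dispersion was estimated on up to 20000 features. The script was tested on simulated data. Python 3.11.15 and limma 3.58.1 were also used. Alternatives were limma on logit values, other thresholds, flanks, tile sizes and read minimums, and leaving out each library. Intervals are 95% Wilson intervals and cover counting error only, since reads need not be independent molecules. The share that 0 methylated reads allow was taken as 3 divided by the reads.

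The members and gene lists were chosen with earlier results of these data known. Named were all 10 members, in each locus up to 3 called tiles with the largest difference in each direction and the lowest tile in T cells, fixed intervals around known elements, and up to 3 called promoters per list and direction. Tiles that lost their call in an alternative, the remaining tiles given, the intervals at the principal transcripts of Il4 and Il17f, single CpGs and runs of low CpGs were described after their values were seen.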

Additional observations from a re-analysis of the deposited data

How the results depend on the processing

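The 24 tiles called between B and T cells became 57 with no minimum difference, 15 with a minimum of 30 points and 13 of 220 with 2 kb tiles, and 21 to 25 with 1 library left out. Of the 24, 18 were called in every fit without 1 library and 20 with limma. With 10 reads per CpG, 20 of 266 tiles were called, 18 of them among the 24. The 2 promoters became 1 (Ifng) with limma and 1 (Ifng) with no sex term, an alternative chosen after seeing the data, and 0 to 1 with 1 library left out: Ifng alone without female B cells, and none without any other library. The 2 gene windows became 4 with no minimum difference, Rad50 and Il17a being added, and stayed at 2 without any 1 library. No called value changed sign. Among windows that were not called, the difference turned negative at Il13 with the unweighted mean (-0.0912 points) and 10-kb flanks (-0.279), at Il2 with 10 reads per CpG (-1.20) and at Il10 over the gene body (-4.99). The median level of the windows in T cells lay between 82.3% and 83.2% and the median difference between 1.03 and 1.88 points. Fits without 1 library also had no sex term, so the number of libraries was not tested on its own. The cause of these changes was not tested, beyond the thresholds themselves.

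No paired analysis was possible because no replicate number is shared between groups and each group has 1 file. With 1 library per group, the spread between animals of a group could not be measured, and a difference between sexes of a cell type cannot be told apart from a difference between libraries. CpGs with under 5 reads are not listed, so short or poorly covered stretches were not analysed here.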
